A study of Mus musculus with 6 samples.

Results

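Fatty acid desaturases and elongases are the enzymes that put double bonds into fatty acyl chains and lengthen them by steps. The genes described are Fads1, Fads2, Fads3, Elovl1, Elovl2, Elovl3, Elovl5 and Scd2, and they were found as the probe sets that the platform annotation assigns to that gene alone. By that rule 7 of the 8 genes had a probe set, out of 22180 genes on the array. The probe set of Scd2, a stearoyl-CoA desaturase, also lists a microRNA gene, so no value is given for it. All 7 others had 1 probe set each and passed the filter on low signal.

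The data are liver transcriptomes of 3 Gpr146 knockout (KO) and 3 wild-type (WT) mice, littermates and all male, on the C57BL/6J background. Gpr146 is a G protein-coupled receptor, and the knockout was in the whole body, so effects that reach the liver from other tissues are part of the comparison. All 6 mice were 24 weeks old, ate chow, and had gone 16 hours without food, then eaten again for 6 hours, when the liver was collected. RNA of each mouse was measured on 1 Affymetrix whole-transcript array, and values are log2 signals as deposited. They can be compared between mice for a gene but not between genes.

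Fatty acids from food or from de novo synthesis are extended in the endoplasmic reticulum by a cycle of reactions whose first, rate-setting step is carried out by an ELOVL elongase. Desaturases take electrons from cytochrome b5 to introduce a double bond at a set position. In the liver, FADS2, ELOVL5, FADS1 and ELOVL2 act in turn to make arachidonic and docosahexaenoic acid from the essential fatty acids of the diet, and genes of this route are known targets of SREBP-1, a transcription factor that insulin activates on feeding. ELOVL1 and ELOVL3 lengthen mainly saturated and monounsaturated chains, and FADS3 acts on the sphingoid bases of sphingolipids.

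Array medians lay between 2.67 and 2.73, and the correlation between any pair of arrays, taken across probe sets, was 0.983 to 0.988. Alb, the albumin gene, was between 11.90 and 11.92 in KO and between 11.90 and 11.95 in WT livers, and all 7 hepatocyte markers were above the filter. Gpr146 measured 4.61, 4.28 and 3.87 in KO mice 1 to 3, against 5.96, 5.56 and 5.65 in WT mice 1 to 3. The groups did not overlap, with KO lower, at a difference of -1.47 ± 0.19 (SE). The limma adjusted p of 0.0702 did not pass the threshold of 0.05 used throughout.

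The comparison of KO with WT asks whether the refed liver expresses these enzymes differently without the receptor. None of the 7 genes passed the test, limma with Benjamini-Hochberg adjustment over the 11090 genes tested. Of all genes tested, 4 passed, or 0.0361%. Elovl3 had the largest difference among the 7, 0.70 on the log2 scale or a KO over WT ratio of 1.62, and Elovl2 was at 0.17. The differences of the other 5, KO minus WT, lay between -0.25 and -0.08. Elovl3 was also the only member with an unadjusted p under 0.05, against 9.13% of all genes tested. KO and WT values overlapped in all 7 genes, while 14.8% of all genes tested did not overlap.

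**Figure D1:**
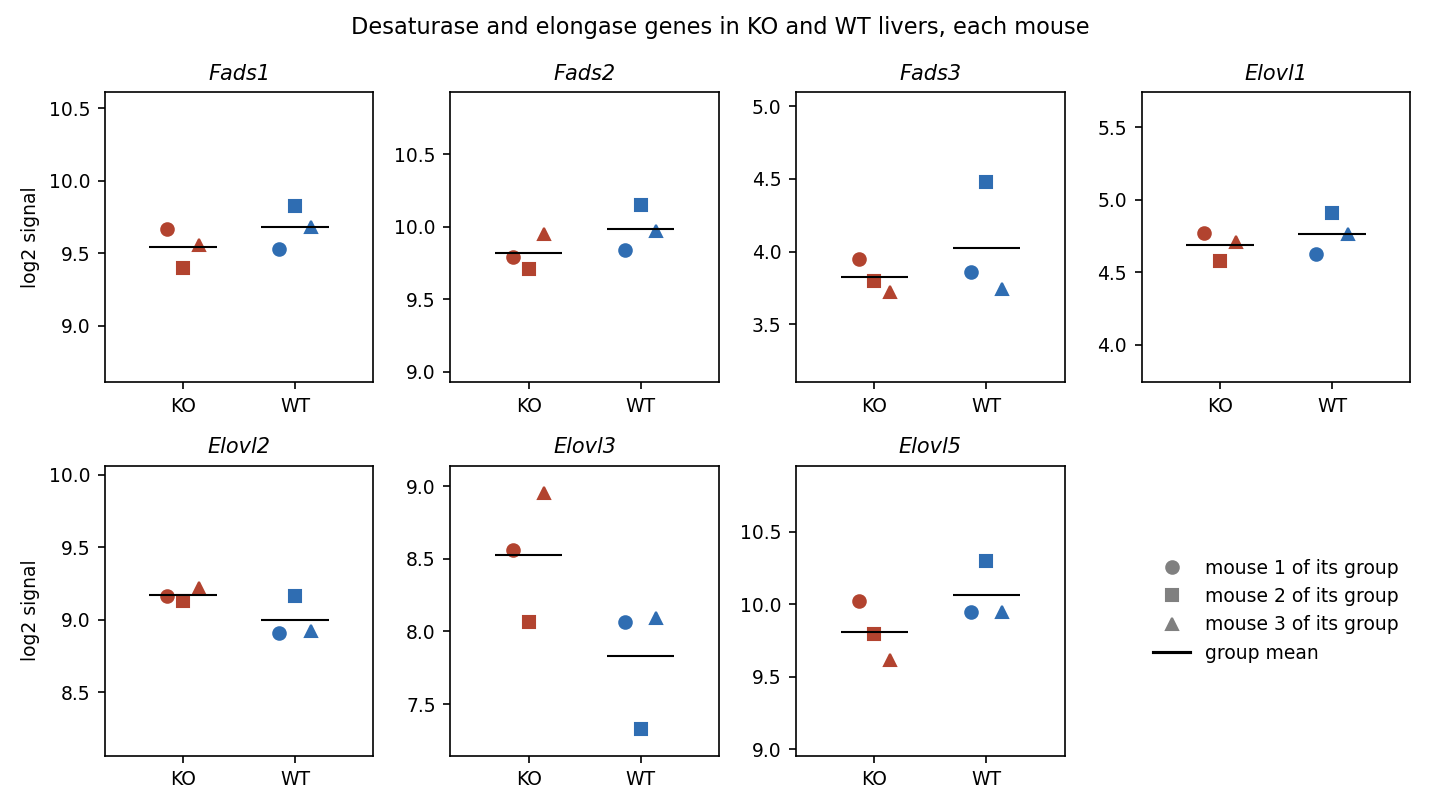
The vertical axis is the deposited log2 signal, each panel spans 2 log2 units, and points are mice (KO in red on the left, WT in blue on the right) with the group mean as a line. The groups overlap in all 7 genes, and WT mouse 2 (square) is the highest point in 5 panels and the lowest for Elovl3.

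Fads2 encodes the desaturase that starts the polyunsaturated route. It measured 9.79, 9.71 and 9.95 in KO mice 1 to 3 and 9.84, 10.15 and 9.97 in WT mice 1 to 3. The highest KO mouse lay between the WT mice, and the difference was -0.17 ± 0.11 (SE; limma adjusted p = 0.672). Its 95% interval ran from -0.43 to 0.09, or from 0.743-fold to 1.06-fold. Leaving out WT mouse 2 gave -0.09, and leaving out WT mouse 1 gave -0.24.

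Fads1 encodes the desaturase later in the same route, whose product is arachidonic acid. Its signal was 9.67, 9.40 and 9.56 in KO mice 1 to 3, against 9.53, 9.82 and 9.68 in WT mice 1 to 3. Here KO mouse 1 exceeded WT mouse 1, and the difference of -0.14 ± 0.11 (SE) had a limma adjusted p of 0.748 and a 95% interval from -0.40 to 0.12. It came to -0.07 when either WT mouse 2 or KO mouse 2 was left out, and to -0.21 when WT mouse 1 was.

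Fads3 lies beside Fads2 on the chromosome, and the 3 Fads genes follow each other with no other protein-coding gene between them in the reference annotation. Fads3 was at 3.95, 3.80 and 3.72 in KO mice 1 to 3 and at 3.86, 4.48 and 3.74 in WT mice 1 to 3. Apart from WT mouse 2 the values of both groups lay within the same narrow range. The difference was -0.20 ± 0.18 (SE; limma adjusted p = 0.775) with all mice and turned to 0.02 without WT mouse 2. Without WT mouse 3 it was -0.35. The signal of this gene was not far above the filter at 2.99, and array background compresses differences of such weak signals.

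Elovl5 encodes the elongase that acts between FADS2 and FADS1. It measured 10.02, 9.80 and 9.62 in KO mice 1 to 3, against 9.95, 10.30 and 9.94 in WT mice 1 to 3. Of the KO mice, 2 lay below every WT mouse and KO mouse 1 lay above 2 of them. The difference was -0.25 ± 0.14 (SE; limma adjusted p = 0.631), with a 95% interval from -0.57 to 0.07. Leaving out WT mouse 2 gave -0.13, leaving out KO mouse 3 gave -0.15 and leaving out KO mouse 1 gave -0.36.

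Elovl2 encodes the elongase that builds the longest precursors of docosahexaenoic acid. Its signal was 9.16, 9.13 and 9.22 in KO mice 1 to 3 and 8.91, 9.17 and 8.92 in WT mice 1 to 3. The KO mice were close together, above WT mice 1 and 3 and level with WT mouse 2. The difference of 0.17 ± 0.10 (SE) had the opposite sign to those of Fads1, Fads2 and Elovl5 and a limma adjusted p of 0.643. Its 95% interval ran from -0.06 to 0.40, and it was 0.25 without WT mouse 2.

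The regions just upstream of the start sites of Fads2, Fads3 and Elovl5 are shown because Fads2 and Elovl5 belong to the SREBP-1-responsive route and Fads3 adjoins Fads2. They are the 250 bases before the annotated start in RefSeq, build GRCm38.p6, read 5′ to 3′ on the strand of the gene. Of the 8 genes, 5 were matched in that table by symbol; Fads1, Elovl3 and Scd2 were not. Capitals mark matches, on either strand, to CCAAT, the NF-Y box; GGGCGG, the GC box bound by Sp1; CACGTG, an E-box; and TCACNCCAC, a sterol regulatory element.
Fads2, chr19:10101504-10101753, minus strand: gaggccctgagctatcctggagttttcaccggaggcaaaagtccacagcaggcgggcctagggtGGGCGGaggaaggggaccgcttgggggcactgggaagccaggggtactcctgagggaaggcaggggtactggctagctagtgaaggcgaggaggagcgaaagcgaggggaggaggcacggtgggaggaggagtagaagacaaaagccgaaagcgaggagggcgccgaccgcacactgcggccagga
Fads3, chr19:10041298-10041547, plus strand: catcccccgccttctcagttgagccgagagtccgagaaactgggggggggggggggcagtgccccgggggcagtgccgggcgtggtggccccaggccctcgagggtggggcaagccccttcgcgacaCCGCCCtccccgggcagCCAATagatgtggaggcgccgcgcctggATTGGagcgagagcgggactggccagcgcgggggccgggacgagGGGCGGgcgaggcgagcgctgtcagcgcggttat
Elovl5, chr9:77917115-77917364, plus strand: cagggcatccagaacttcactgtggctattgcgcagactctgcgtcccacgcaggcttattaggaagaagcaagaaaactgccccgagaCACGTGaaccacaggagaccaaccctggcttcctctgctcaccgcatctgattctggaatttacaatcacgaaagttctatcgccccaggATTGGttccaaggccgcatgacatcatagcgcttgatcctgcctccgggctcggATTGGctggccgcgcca
Fads2 held 1 GC box in this window. Fads3 held CCAAT on each strand and a GC box on each strand. Elovl5 held CCAAT 2 times on the opposite strand and the E-box, which reads the same on both strands. Elovl1 and Elovl2 have 2 start sites each in the table and are not printed; CCAAT lay before 1 of the Elovl1 starts, and GC boxes lay before 2 of the Elovl1 starts and 1 of the Elovl2 starts. The sterol regulatory element, searched only in the form given above, was not found in any of these windows. In the printed windows the matches did not overlap one another. Among the 32851 start sites of the table, 33.8% held CCAAT, 32.7% the GC box, 6.02% the E-box and 1.05% the sterol regulatory element in a window of that length.

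Elovl1 encodes the elongase that supplies very long saturated chains to sphingolipids. It measured 4.77, 4.58 and 4.71 in KO mice 1 to 3, against 4.62, 4.91 and 4.76 in WT mice 1 to 3. The groups overlapped, and the difference of -0.08 ± 0.11 (SE; limma adjusted p = 0.873) had a 95% interval from -0.32 to 0.17. With WT mouse 2 left out it was -0.0070, and with WT mouse 1 left out -0.15.

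Elovl3 encodes an elongase of saturated and monounsaturated chains that is expressed more in male than in female mouse liver and varies with the time of day. Its signal was 8.56, 8.07 and 8.96 in KO mice 1 to 3 and 8.07, 7.33 and 8.09 in WT mice 1 to 3. KO mice 1 and 3 lay above every WT mouse and KO mouse 2 lay level with WT mice 1 and 3. The means were 8.53 ± 0.45 in KO and 7.83 ± 0.43 in WT (SD, n = 3 each). The difference was 0.70 ± 0.26 (SE), with an unadjusted limma p of 0.0249, an adjusted p of 0.469 and an exact two-sided permutation p of 0.2, where 3 against 3 mice cannot go below 0.1. The 95% interval, which is not adjusted for the number of genes, ran from 0.11 to 1.29, or from 1.08-fold to 2.44-fold. Leaving out WT mouse 2 gave 0.45, leaving out KO mouse 3 gave 0.49 and leaving out KO mouse 2 gave 0.93.

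**Figure D2:**
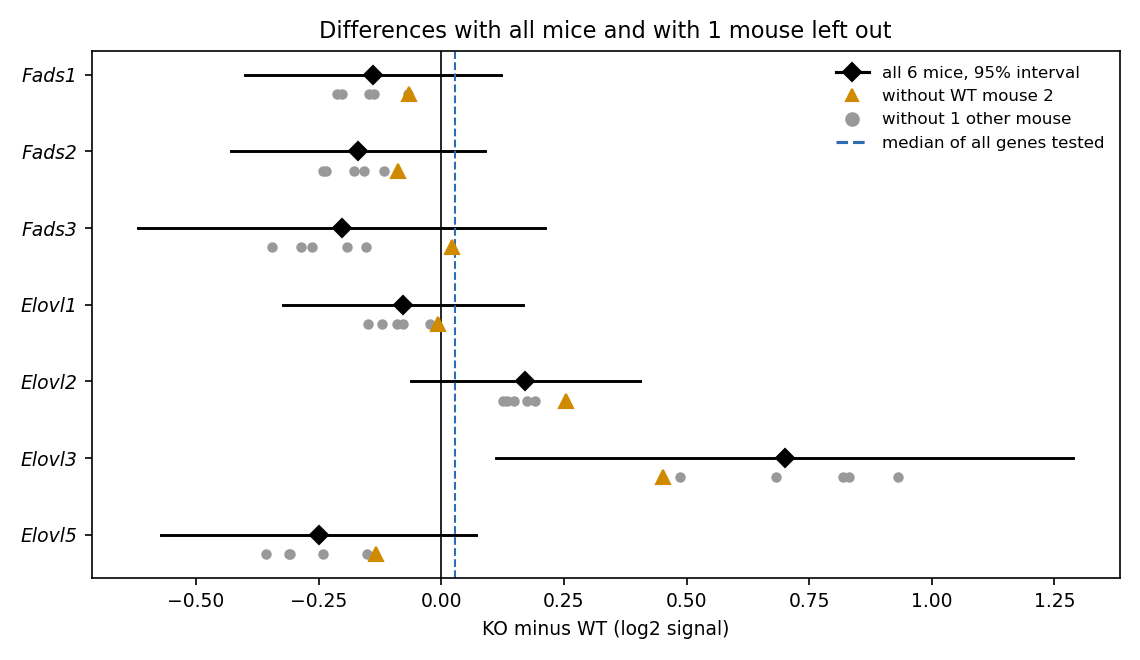
The horizontal axis is KO minus WT in log2 signal, black diamonds with bars give the estimate and its 95% interval from all 6 mice, and the points under each bar leave out 1 mouse (WT mouse 2 as an orange triangle). Only the interval of Elovl3 lies wholly to 1 side of 0, and the triangle is the point nearest to 0 in every gene but Elovl2, where it is at 0.25.

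WT mouse 2 was at 1 end of the 6 mice in most of these genes. It was the highest of the 6 mice in 5 of the 7 genes (Fads1, Fads2, Fads3, Elovl1 and Elovl5) and the lowest in Elovl3, where it lay 0.85 below the mean of the 6 mice. Over all genes tested it was highest in 20.3% and lowest in 11.6%. KO mouse 2 was the lowest mouse in 3 of the 7 genes, Fads1, Fads2 and Elovl1, and in 12.4% of all genes tested. KO mouse 3 was the highest in Elovl2 and Elovl3 and the lowest in Fads3 and Elovl5. Over all genes tested it was highest in 25.6% and lowest in 12.3%.

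WT mouse 2 was also at an end of the mice in the means of genes that differ between male and female mouse liver. The mean deviation of 18 male-biased genes tested, a list that did not include Elovl3, was -0.36, 0.30 and 0.68 in KO mice 1 to 3, against -0.05, -0.81 and 0.24 in WT mice 1 to 3. The mean deviation of 9 female-biased genes tested was 0.29, -0.35 and -0.73 in KO mice 1 to 3 and 0.21, 0.96 and -0.39 in WT mice 1 to 3. KO mouse 3 and WT mouse 2 thus lay at opposite ends of both lists, as they did for Elovl3. The mice between them did not all keep that order. KO mouse 1 was at 0.38 for Elovl3 but at -0.36 in the male-biased mean, and KO mouse 2 at -0.11 but 0.30. WT mouse 3 was at -0.09 for Elovl3 but at 0.24 in the male-biased mean, while WT mouse 1 was at -0.11 and -0.05. WT mouse 2 was lowest in 11 of the 18 male-biased genes and highest in 7 of the 9 female-biased genes. A few very variable genes weigh heavily on the list means. In WT mouse 2 Hsd3b5 was at 1.51 and Slco1a1 at 4.31, against WT means of 4.58 and 6.85. Hsd3b5 was also low in KO mouse 1, at 3.24. The female-biased Cyp2b9 was at 10.32 in WT mouse 2, against a WT mean of 7.44.

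None of these genes passed the test. Of the 18 male-biased genes, 17 had a positive difference, with a median of 0.18. All 9 female-biased genes had a negative difference, with a median of -0.45. Over all 11090 genes tested, 6402 had a positive difference. Among the male-biased genes C8a, a complement component, was at 0.60 ± 0.19 (SE; limma adjusted p = 0.401) and 0.42 without WT mouse 2, and Serpina1e, a protease inhibitor, was at 0.61 ± 0.28 and 0.34 without that mouse. Among the female-biased genes the acyl-CoA thioesterase genes Acot3 and Acot4 were at -1.13 ± 0.39 and -0.37 ± 0.17. Without WT mouse 2 they were at -0.78 and -0.25, and without WT mouse 3 at -1.57 and -0.53. The part of this variation in the difference of Elovl3 was not tested.

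**Figure D3:**
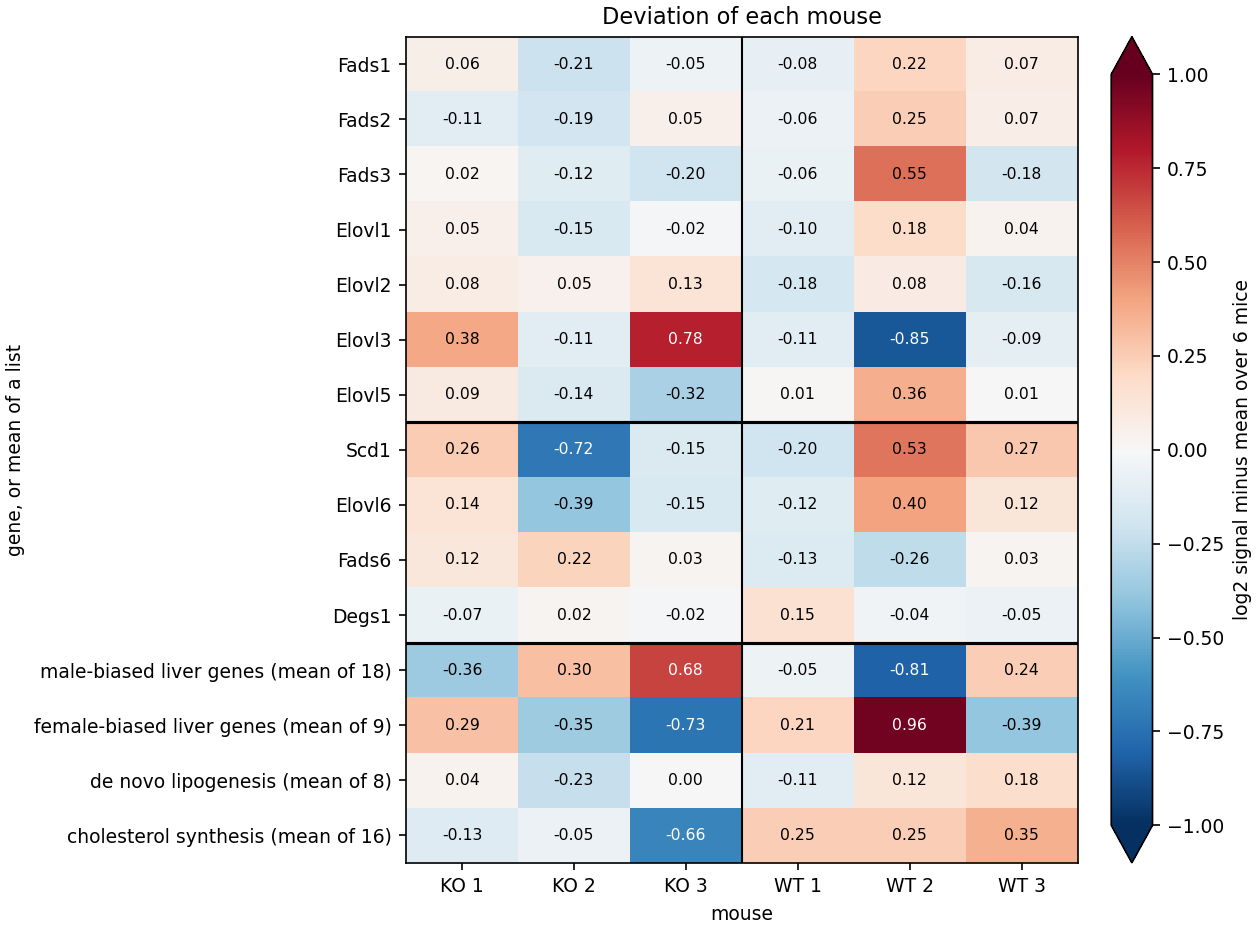
Each cell gives a mouse's log2 signal minus the mean over the 6 mice, for the 7 genes, for 4 related genes, and as the mean over the genes of 4 lists, with KO mice on the left and WT mice on the right. WT mouse 2 is high in most desaturase and elongase genes, at 0.55 for Fads3, and low in Elovl3 (-0.85) and in the male-biased genes (-0.81).

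The genes whose signals were most like that of Elovl3 were found by Pearson correlation over the 6 mice among the 11089 other genes tested. The highest were Fip1l1 at 0.993, Otud3 at 0.977 and Scamp1 at 0.976, with Spearman's rho at 0.829 for each. Without KO mouse 3 and WT mouse 2, the mice farthest from the median, the Pearson correlations were 0.962, 0.901 and 0.810. Of all genes compared, 73 (0.658%) had a correlation of at least 0.9. These values describe 6 mice that share genotype groups, and they were chosen as the highest among many.

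Of 9 other genes for desaturases and elongases, 4 passed the filter, and 0 of the 4 passed the test. Scd1, the main stearoyl-CoA desaturase of the liver, measured 10.94, 9.96 and 10.53 in KO mice 1 to 3, against 10.48, 11.22 and 10.95 in WT mice 1 to 3. WT mouse 2 was again the highest and KO mouse 2 the lowest, and the difference was -0.41 ± 0.26 (SE; limma adjusted p = 0.668). Leaving out KO mouse 2 brought Scd1 to -0.15, leaving out WT mouse 2 to -0.24 and leaving out KO mouse 1 to -0.64.

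Elovl6, which extends palmitate to stearate, had the same order at its ends and a difference of -0.27 ± 0.17, which was -0.14 once KO mouse 2 was left out, -0.13 once WT mouse 2 was and -0.40 once KO mouse 1 was. Fads6, a little-studied relative, was at 0.24 ± 0.11 and Degs1, which desaturates dihydroceramide, at -0.04 ± 0.10. Elovl4, Elovl7, Scd3, Scd4 and Degs2 lay below the filter, with single values from 1.60 to 3.08, and their smallest unadjusted limma p with no filter was 0.179.

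The enzymes that work with the elongases and desaturases showed 0 calls. Of 5 elongation cycle genes tested, 3 had a positive difference and the median was 0.06. Among them Hsd17b12, the ketoacyl-CoA reductase of the cycle, was at -0.18 ± 0.10 (SE) and Hacd2, a dehydratase, at 0.12 ± 0.14. Leaving out WT mouse 3 brought Hsd17b12 to -0.09, and leaving out WT mouse 1 to -0.24. With 1 mouse left out Hacd2 lay between 0.06, the value without KO mouse 3, and 0.25, the value without KO mouse 2. Of 5 electron transfer genes tested, 2 had a positive difference and the median was -0.04. There Cyb5r3, a cytochrome b5 reductase, was at -0.17 ± 0.10. Cyb5b, an outer mitochondrial membrane form of cytochrome b5, was at -0.16 ± 0.09. The Cyb5b difference was -0.10 when WT mouse 2 and -0.19 when WT mouse 3 was left out. The median over all genes tested was 0.03. The median of the 7 desaturase and elongase genes was -0.14, or -0.0070 without WT mouse 2 and -0.21 without WT mouse 1.

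Docosahexaenoic acid synthesis ends with chain shortening in peroxisomes. The 7 genes tested for that step had a median of -0.06 with 0 calls. Acaa1a, a peroxisomal thiolase, was at 0.18 ± 0.11 (SE). It was 0.09 when WT mouse 2, 0.12 when KO mouse 2 and 0.25 when KO mouse 3 was left out. Decr2, a peroxisomal dienoyl-CoA reductase, was at -0.09 ± 0.08. The 8 tested genes that activate or use long and unsaturated chains had a median of -0.03 with 0 calls. Cers6, a ceramide synthase, was at -0.54 ± 0.29, or -0.23 without WT mouse 2 and -0.78 without KO mouse 1. Acsl4, which activates arachidonic acid, was at -0.23 ± 0.13. It was -0.15 when WT mouse 2 and -0.35 when WT mouse 1 was left out.

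Of 17 regulators tested, 12 had a positive difference, 0 passed the test and the median was 0.04. Bcl6, a transcriptional repressor that is part of the male pattern of liver expression, measured 6.81, 6.88 and 7.25 in KO mice 1 to 3, against 6.50, 6.26 and 6.39 in WT mice 1 to 3. Every KO mouse lay above every WT mouse, at a difference of 0.59 ± 0.13 (SE) and a limma adjusted p of 0.283, and it was 0.53 without WT mouse 2. Mlxipl, the carbohydrate-sensing factor ChREBP, was at 0.54 ± 0.13 (adjusted p = 0.315), also with no overlap; these were 2 of the 17 regulators, against the 14.8% of all genes tested. Srebf1, which encodes SREBP-1 and is named here outside the rule, after its values were seen, measured 7.40, 7.11 and 7.71 in KO mice 1 to 3, against 7.24, 7.26 and 6.79 in WT mice 1 to 3. The groups overlapped, and its difference was 0.31 ± 0.18 (limma adjusted p = 0.635). It was 0.16 when either WT mouse 3 or KO mouse 3 was left out and 0.45 when KO mouse 2 was. Insig1, which retains SREBP precursors in the endoplasmic reticulum and was likewise named after its values were seen, was at -0.48 ± 0.18 (limma adjusted p = 0.484, unadjusted p = 0.0290). Its groups overlapped too, with WT mouse 3 at 9.68 below KO mouse 1 at 9.80. The Insig1 difference was -0.36 when WT mouse 1 and -0.70 when WT mouse 3 was left out.

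Lipid synthesis lists that feed or neighbour this pathway are given side by side. The 8 de novo lipogenesis genes tested had a median of -0.12 with 0 calls. Acss2, an acetyl-CoA synthetase, was at -0.38 ± 0.14 (SE; limma adjusted p = 0.478), and at -0.24 without WT mouse 3. Acly, ATP citrate lyase, was at -0.26 ± 0.11 (limma adjusted p = 0.516), or -0.17 without KO mouse 2 and -0.32 without KO mouse 3. The 16 cholesterol synthesis genes tested all had a negative difference, with a median of -0.53 and 0 calls, against 5 negative differences among the 7 desaturase and elongase genes. Hsd17b7 and Pmvk were at -0.96 ± 0.18 and -0.73 ± 0.12, and 11 of those 16 genes had every KO mouse below every WT mouse, against 0 of the 7 and 5.16% of all genes tested.

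**Figure D4:**
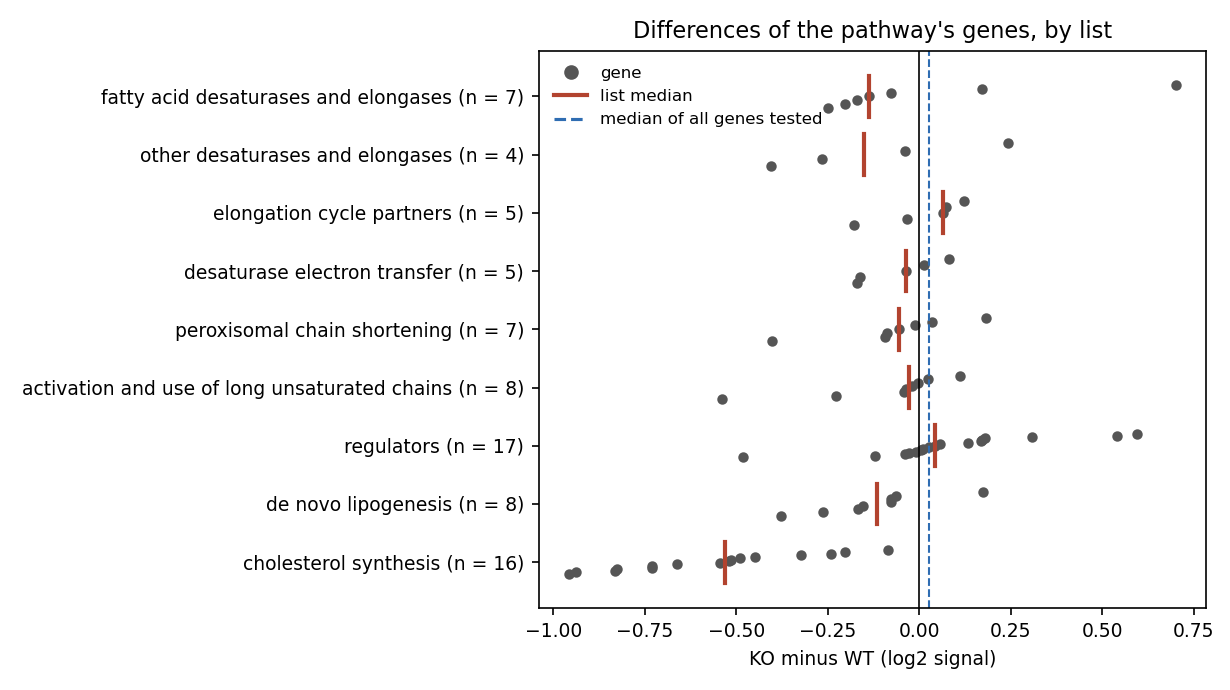
The horizontal axis is KO minus WT in log2 signal, each point is a gene tested, red bars are list medians, and the dashed line is the median of all genes tested. The cholesterol synthesis genes lie wholly below 0 with a median of -0.53, while the desaturases and elongases spread from -0.25 to 0.70 around a median of -0.14.

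In bulk liver, fewer cells of a type and less RNA per cell cannot be told apart. Markers of other cell types had 0 calls over 8 lists, of which the B cell and neutrophil lists had no marker above the filter. The mean level of 6 Kupffer cell markers ranged from 5.23 to 5.84 in KO and from 5.03 to 5.99 in WT livers, and that of 6 stellate cell markers from 4.86 to 5.20 in KO and from 4.92 to 5.37 in WT livers. The mean of 5 sinusoidal endothelial markers ranged from 5.79 to 5.99 in KO and from 5.78 to 6.06 in WT livers. The stellate and endothelial means were highest in WT mouse 2, and the Kupffer cell mean was lowest in that mouse. Fads1, Fads2, Fads3, Elovl1 and Elovl5 were also highest there. Single markers often departed from these means. Among the endothelial markers only Kdr was highest in WT mouse 2. The stellate cell markers Reln and Dcn were highest in WT mouse 3. Of the Kupffer cell markers, Clec4f and Marco were lowest in WT mouse 2 and the others in WT mouse 3. The part of other cells in the differences of the desaturase and elongase genes was not tested. Of 5 fat cell genes measured, Adipoq and Lep were below the filter, and 3 were tested and had negative differences: Cidec at -0.68 ± 0.36 (SE), Car3, which liver also expresses, at -0.09 ± 0.10 and Plin1 at -0.02 ± 0.11. The mean deviation of those 3 was 0.18, -0.36 and -0.21 in KO mice 1 to 3. In WT mice 1 to 3 it was 0.22, 0.30 and -0.13. This mean was highest in WT mouse 2 and lowest in KO mouse 2, as were Fads1, Fads2 and Elovl1. Of the 3 genes only Cidec had both ends in those mice, at 7.14 and 5.47. Plin1, with means of 3.03 in KO and 3.06 in WT livers, lay close to the filter at 2.99. It was lowest in KO mouse 2 but highest in WT mouse 1. Car3 was highest in WT mouse 2 but lowest in WT mouse 3.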

How the data were processed

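Liver RNA of 6 mice was hybridised to 1 array each; per the labels' protocols, biotinylated cRNA was made from 100 ng of total RNA. The authors deposited log2 values for 41345 probe sets, with summary and normalization methods not given in the sources used here. Array maxima of 12.1 to 12.2 lie above 11.1, the largest natural log that a 16-bit scan allows, which places the values on a log2 scale.

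Genes were named from the platform annotation, updated by Entrez number to RefSeq (GRCm38.p6); probe sets with several genes or none were left out, and the highest mean per gene was kept. The upper 50% of 22180 genes by mean signal were tested with limma 3.58.1 in R 4.3.3 (lmFit, eBayes, two-sided, no covariate), adjusted by Benjamini-Hochberg. Differences are KO minus WT. The fit was also run on simulated data, with results not given here. The number of arrays limits precision; standard errors of the members ran from 0.10 to 0.26. Nothing says how the mice were drawn from litters.

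The members and gene lists were chosen with earlier results of these data known. Named genes are all members, Gpr146 and Alb, the genes with calls or else the 2 of smallest p in each other list (4 among other desaturases and elongases), and the 3 genes most correlated with the member of smallest p. Alternatives covered filter, probe set, scaling, pseudocount, fit options, mouse number and each mouse left out.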

Additional observations from a re-analysis of the deposited data

How the results depend on the processing

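The settings were applied to Srebf1 and Insig1 after seeing the data. All 7 members had 0 calls in either direction in each of the 15 alternatives run, in which Fads3 and Elovl1 fell below the filter of the upper 25%. Member differences kept their sign in 102 of 103 results; the exception was Fads3, which lay at 0.022 when WT mouse 2 was left out and as low as -0.346 when another mouse was. The median of the members ran from -0.213 to -0.0070 with 1 mouse left out. Genes called in all, 4 as reported, numbered 0 in the upper 25% of signal (limma), 1 with the pseudocount of 16 and 1 with the replicate block, and from 1 to 51 with 1 mouse left out, 51 being without WT mouse 3. Gpr146 passed at -1.48 after median centring and at -1.47 with trend and robust options. Its difference ran from -1.65 to -1.28 with 1 mouse left out, passing without WT mouse 3 (-1.50), and was -0.97, with no call, with the pseudocount of 16. Among the 28 other genes whose differences were refitted, with Gpr146, Srebf1 and Insig1 but not Alb among them, only Degs1 changed sign, running from -0.076 to 0.027, the last without WT mouse 1.

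Nothing says that same-numbered KO and WT mice belong together, so the numbers were not taken as pairs. Deviations of same-numbered mice correlated at 0.06, -0.19 and 0.15. Those of differently numbered mice ran from -0.27 to 0.24, a range that covers the same-numbered values, so the correlations cannot decide the question. With the replicate block Elovl3 stayed at 0.70, with an SE of 0.11 against 0.26 without it (limma adjusted p = 0.179, against 0.469).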
